A study of Mus musculus with 468 samples.

Results

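The transcript of Col1a1, which encodes the alpha 1 chain of type I collagen, was used to pick the adipose samples with the most and the least fibrillar collagen RNA. The members were selected on its level in counts per 1000000 (CPM), the Col1a1 count over the sum of all gene counts of that sample times 1000000. Samples without any count of Ddx3y, a gene of the Y chromosome, and samples with Ddx3y counts were ranked apart, and the 25% at each end were taken. This gave 56 samples in the top and 56 in the bottom group without Ddx3y counts, and 60 and 60 with them, together 49.57% of the series. The samples between the groups, 24.57% of the series without and 25.85% with Ddx3y counts, were used for a separate test. Each sample came from a different Diversity Outbred mouse, an outbred stock that mixes the genomes of several inbred founder strains. All mice ate the same diet, rich in sugar and with 45 percent fat, and their adipose tissue, visceral per the methods of the study, gave 1 library of polyadenylated RNA each. The labels name no sex, age, generation, body weight or batch. The groups are therefore ends of a natural range among mice of unequal genotype, with no treatment between them, and single mice have no replicate libraries, so the errors below are over mice and include the error of the assay.

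Fibrillar collagens are secreted as procollagen trimers, trimmed outside the cell and packed into the fibrils that carry tension in connective tissue. Type I, made of the Col1a1 and Col1a2 chains, is the main one, and types III and V mix into the same fibrils. In adipose tissue fibroblasts and progenitor cells are known as their main source, and in obesity collagen is known to be laid down around adipocytes, often where macrophages gather around dying fat cells. In bulk tissue a lower level of a gene can come from fewer cells or from less RNA per cell, which cannot be told apart here.

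Total expected counts ranged from 35298813 to 137760410 per sample (median 82043357). Between the groups, total count did not pass the test in either stratum (permutation test of 100000 resamples, adjusted over 12 comparisons, p = 0.647 without and 0.0501 with Ddx3y counts). The share of counts from genes encoded by mitochondrial DNA was lower in the top group, 6.27 ± 2.40% against 12.5 ± 3.26% (SD, n = 56 and 56) without Ddx3y counts and 4.16 ± 0.766% against 5.80 ± 1.16% (n = 60 and 60) with them, adjusted p = 6e-05 for both. The factor by which trimmed mean normalization (TMM) rescales a library was higher in the top group, 1.04 against 0.850 and 1.09 against 1.01, also with adjusted p = 6e-05, which rests on the smallest p that these resamples can give. Col1a1 CPM, the mitochondrial share and the TMM factor all depend on the same column sum. The choice of samples therefore fixed part of both differences in advance. Ranked by TMM-scaled CPM, 53 of 56 bottom and 54 of 56 top samples without Ddx3y counts kept their group. With Ddx3y counts 54 of 60 and 58 of 60 did. Levels and differences below are TMM-scaled, apart from the Col1a1 values that chose the samples. The 16 adipocyte genes summed to between 12184 and 58752 CPM in these samples, so adipocyte RNA was present in each of them.

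In the samples without Ddx3y counts, Col1a1 (ENSMUSG00000001506, chromosome 11, 94936224 to 94953042 on GRCm38) ran from 102.7 to 367.1 CPM in the bottom group (median 285.3) and from 863 to 4329.7 CPM in the top group (median 1119). In the samples with Ddx3y counts the bottom group ran from 118.2 to 428.2 CPM (median 314.5) and the top group from 1064 to 3031 CPM (median 1426). The levels form 1 continuous range. The highest member of the bottom group had 367.13 CPM and the next sample above it 367.83 CPM without Ddx3y counts, and 428.231 against 428.239 CPM with them. At the upper edge the steps were from 842 to 863 CPM and from 1048 to 1064 CPM. Because Col1a1 chose the samples, it got no test. The plot of fibrillar collagen transcripts shows these levels beside those of Col1a2 and Col3a1.

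**Figure D1:**
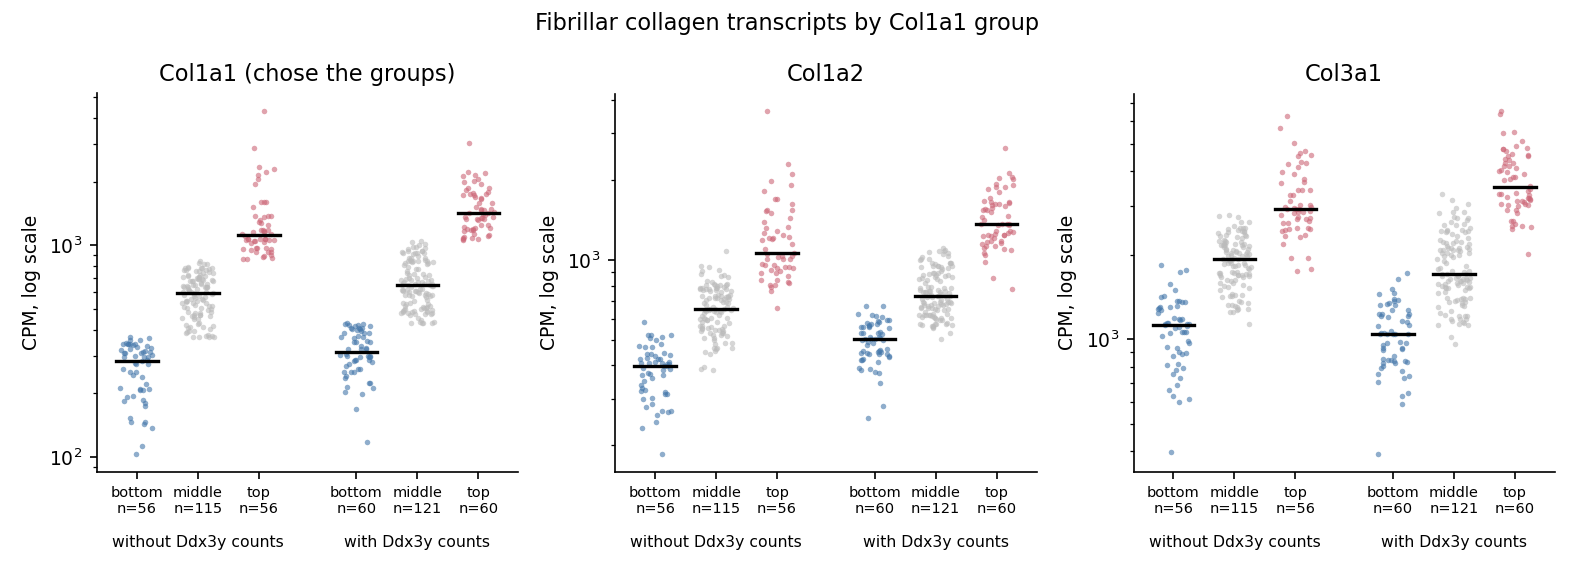
Levels of Col1a1 (plain CPM, the value that chose the groups), Col1a2 and Col3a1 (TMM-scaled CPM), on log axes, in each sample by Col1a1 group and by presence of Ddx3y counts. Each point is 1 mouse and each bar a median. The highest bottom sample and the lowest top sample of Col1a2 are 581.4 and 657.8 CPM without Ddx3y counts and 669.9 and 779.7 CPM with them.

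Much of the transcriptome differed between the groups, so a count of changed genes in any list has to be read against a high background. Of 18379 genes tested, edgeR's quasi-likelihood test called 6344 higher (34.5%) and 5827 lower (31.7%) in the top group without Ddx3y counts, at an adjusted p under 0.05. With Ddx3y counts it called 5464 higher (29.7%) and 6840 lower (37.2%). The strata share no mouse. The 3647 genes higher in both (19.8% of those tested) were 57.5% of the first list and 66.7% of the second, and the 3897 lower in both (21.2%) were 66.9% and 56.97%. At least 2-fold changes in both strata were fewer, with 2.38% of genes higher and 96 genes lower (0.522%). The median log2 fold change over all genes was 0.02 without and -0.05 with Ddx3y counts. These medians depend on the scaling. With the column sum in place of the TMM factors they were 0.31 and 0.05, and the share of calls that were higher rose from 52.1% to 85.9% without and from 44.4% to 59.6% with Ddx3y counts. Without Ddx3y counts 1564 genes were called in the opposite direction by the 2 scalings, and 1 gene with them.

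The samples between the groups gave a second look at the same relation in mice that the groups did not use. Per doubling of Col1a1, 3366 genes rose (18.3%) and 2755 fell (15%) in the middle samples without Ddx3y counts, and 3093 rose (16.8%) and 3205 fell (17.4%) in those with them. Of the genes at least 2-fold higher in both strata, 76.03% also rose in both sets of middle samples, and of the 96 at least 2-fold lower, 32 (33.3%) also fell in both. The share of all genes tested that did so in both sets is not given here. It cannot exceed the smaller share of a single set, 16.8% rising and 15% falling. The difference between groups itself differed between the strata in many genes: by the interaction term it was greater with Ddx3y counts for 4427 genes (24.1%) and smaller for 4903 (26.7%). In 1442 genes the strata were called in opposite directions, 853 of them higher without and lower with Ddx3y counts. The interaction was not fitted with the column sum alone. That scaling moved the all-gene median from 0.02 to 0.31 without but from -0.05 to 0.05 with Ddx3y counts. These counts, and small differences between strata given below, can therefore depend on the scaling. Samples with and without Ddx3y counts came, almost without exception, in alternating runs of the mouse numbers that the labels give. A difference between strata therefore cannot be told apart from a difference between these runs.

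**Figure D2:**
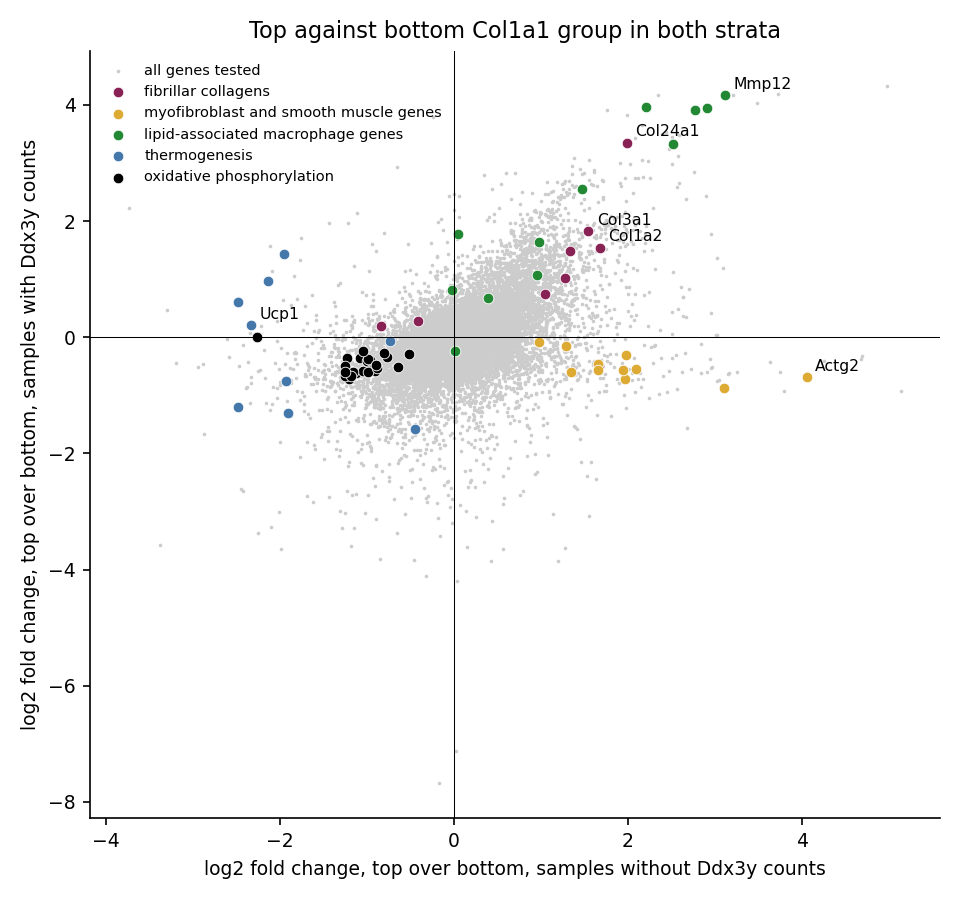
Log2 fold change of the top over the bottom group in samples without (x axis) and with (y axis) Ddx3y counts for all 18379 genes tested, with 5 gene lists in colour. Fibrillar collagens and lipid-associated macrophage genes lie mostly at the upper right, oxidative phosphorylation genes at the lower left, and the smooth muscle genes to the right of 0 on the x axis and mostly below 0 on the y axis.

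The other fibrillar collagen chains rose with Col1a1 in both strata for types I, III, V and XXIV, and not for the 2 chains of type XI or for type XXVII. Of 9 measured chains tested, 7 were higher and 2 lower without Ddx3y counts (median log2 fold change 1.33), and 7 were higher and none lower with them (median 1.02), beside all-gene medians of 0.02 and -0.05. The remaining chain on the list, Col2a1, was below the count filter. In the middle samples 6 rose and 1 fell without Ddx3y counts, and 6 rose with them.

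Col1a2 (chromosome 6, 4504814 to 4541544), the partner chain of type I, ranged from 184.9 to 581.4 CPM in the bottom group (median 398.1) and from 657.8 to 3646 CPM in the top group (median 1059) without Ddx3y counts. With Ddx3y counts Col1a2 ranged from 254.4 to 669.9 CPM (median 501.6) and from 779.7 to 2645 CPM (median 1364). In neither stratum did the groups overlap. The share of all genes tested whose groups did not overlap is not given, so absence of overlap, here and below, is a description only. The log2 fold change of Col1a2 was 1.67 ± 0.082 (adjusted p = 6.39e-36) and 1.54 ± 0.056 (adjusted p = 6.13e-50), about 3-fold in each, and the interaction did not pass (adjusted p = 0.283). Col3a1 (chromosome 1, 45311538 to 45349706), the chain of type III fibrils, ranged from 397.3 to 1836 CPM in the bottom group (median 1123) and from 1748 to 6249.8 CPM in the top group (median 2928) without Ddx3y counts and rose by 1.55 ± 0.080 (SE, adjusted p = 6.63e-34). With Ddx3y counts Col3a1 ranged from 388.5 to 1730.2 CPM (median 1045) and from 2026 to 6554 CPM (median 3488) and rose by 1.83 ± 0.069 (SE, adjusted p = 4.81e-48). The groups of Col3a1 overlapped slightly without Ddx3y counts and not at all with them, and the difference between strata of 0.29 ± 0.10 (SE, adjusted p = 0.0115) passed. Per kilobase of annotated exon, Col3a1 was the most abundant fibrillar chain in every group, with median levels of 114.4 and 298.3 CPM per kilobase in the bottom and top group without Ddx3y counts and 106.5 and 355.3 with them, above Col1a1 (50.3, 166.2, 46.2 and 198.5 in the same order).

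The type V chains, which set the width of type I fibrils, moved together. Col5a2 lies beside Col3a1 on the opposite strand (chromosome 1, 45374321 to 45503282) and ranged from 73.4 to 268.996 CPM in the bottom group (median 146.4) and from 208.8 to 667.1 CPM in the top group (median 367.3) without Ddx3y counts. With Ddx3y counts Col5a2 ranged from 52.6 to 348.4 CPM (median 164.3) and from 285.9 to 797 CPM (median 499.2). Its log2 fold changes of 1.33 ± 0.078 (adjusted p = 3.82e-30) and 1.49 ± 0.073 (adjusted p = 2.86e-38) were close in size to those of Col3a1. Col5a1 rose by 1.27 ± 0.073 (adjusted p = 1.63e-30) and 1.02 ± 0.055 (adjusted p = 2.45e-35). Col5a3 ranged from 65.5 to 1113 CPM in the bottom group (median 258.4) and from 232.2 to 1519 CPM in the top group (median 673.7) without Ddx3y counts. Its changes were 1.04 ± 0.14 (adjusted p = 1.97e-10) and 0.74 ± 0.11 (adjusted p = 8.2e-09). For Col5a3 the groups thus overlapped over most of their range.

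Col24a1, a minor fibrillar chain, ranged from 0 to 2.29 CPM in the bottom group (median 0.194) and from 0.0522 to 6.88 CPM in the top group (median 0.559) without Ddx3y counts. With Ddx3y counts Col24a1 ranged from 0 to 1.33 CPM (median 0.175) and from 0.152 to 14.3 CPM (median 1.48). It was scarce in all groups and yet had a large log2 difference among the fibrillar chains, 1.99 ± 0.27 (adjusted p = 1.33e-10) without and 3.35 ± 0.29 (adjusted p = 9.41e-20) with Ddx3y counts. With Adgre1, a macrophage gene, as a covariate the second value was 0.93 (adjusted p = 0.182). Col11a1, a chain best known from cartilage, ranged from 0.0540 to 1.67 CPM in the bottom group (median 0.380) and from 0.0284 to 36.03 CPM in the top group (median 0.526) without Ddx3y counts, so the rise of 1.67 ± 0.32 (adjusted p = 2.1e-06) came with nearly equal medians and a few high samples, and limma on log2 CPM gave 0.52 with no call. With Ddx3y counts Col11a1 was not called. Its difference between strata was -2.18 ± 0.40 by the interaction term (SE, adjusted p = 8.6e-07). Col11a2 fell by 0.85 ± 0.12 (adjusted p = 1.73e-09) without Ddx3y counts and stood at 0.19 ± 0.11 (adjusted p = 0.107) with them, which did not pass. Col27a1 was at -0.41 ± 0.11 (adjusted p = 0.00052) and 0.29 ± 0.093 (adjusted p = 0.0047), opposite calls in the strata, with a column-sum value of -0.10 in the first that no longer passed.

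Promoter sequence is shown for 3 of the chains that rose in both strata, types III and V, as the stretch of 250 bases that ends just before the RefSeq start (GRCm38.p6). None of these stretches overlaps an annotated exon. Capitals mark the letters CCAAT or TATAAA on either strand.
Col3a1 promoter, chr1:45311288-45311537, plus strand: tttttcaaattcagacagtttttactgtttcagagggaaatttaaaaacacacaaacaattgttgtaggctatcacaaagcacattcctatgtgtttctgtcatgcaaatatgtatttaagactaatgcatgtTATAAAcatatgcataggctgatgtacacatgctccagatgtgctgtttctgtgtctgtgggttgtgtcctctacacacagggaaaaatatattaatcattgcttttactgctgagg
Col5a1 promoter, chr2:27886175-27886424, plus strand: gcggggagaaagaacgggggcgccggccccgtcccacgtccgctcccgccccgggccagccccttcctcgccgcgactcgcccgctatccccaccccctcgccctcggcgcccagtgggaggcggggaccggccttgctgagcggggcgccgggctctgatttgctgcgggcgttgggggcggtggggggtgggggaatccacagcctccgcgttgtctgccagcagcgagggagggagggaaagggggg
Col5a3 promoter, chr9:20815068-20815317, minus strand: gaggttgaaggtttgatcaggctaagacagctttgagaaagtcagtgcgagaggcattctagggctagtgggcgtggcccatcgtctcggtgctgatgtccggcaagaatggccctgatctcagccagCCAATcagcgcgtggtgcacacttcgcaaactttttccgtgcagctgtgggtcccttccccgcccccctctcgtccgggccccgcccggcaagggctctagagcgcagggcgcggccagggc
Of the 10 fibrillar chains, 8 had an entry in the RefSeq table. Col3a1 holds TATAAA, Col5a3 holds CCAAT, and Col5a1 holds neither. Among 32851 RefSeq promoters of this length 33.9% hold CCAAT and 12.4% TATAAA, and among the 8 chains 3 hold CCAAT and 2 hold TATAAA, which is a description of these letters only.

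Type VI collagen forms beaded filaments around adipocytes, and its 3 abundant chains rose as strongly as the fibrillar ones. Col6a1 and Col6a2 lie next to each other on chromosome 10 (76708792 to 76726168 and 76595762 to 76623630). Col6a1 ranged from 142.5 to 662.3 CPM in the bottom group (median 330.9) and from 492.2 to 2024 CPM in the top group (median 820.0) without Ddx3y counts. With Ddx3y counts Col6a1 ranged from 188.1 to 582.2 CPM (median 320.8) and from 615.1 to 1525 CPM (median 990.2), without overlap. Col6a2 and Col6a3 also had no overlap with Ddx3y counts, and all 3 overlapped without them. The log2 fold changes were 1.45 ± 0.090 (adjusted p = 2.61e-28) and 1.57 ± 0.063 (adjusted p = 6.99e-46) for Col6a1, 1.54 ± 0.094 (adjusted p = 1.12e-28) and 1.49 ± 0.061 (adjusted p = 9.18e-45) for Col6a2, and 1.55 ± 0.099 (adjusted p = 2.15e-27) and 1.43 ± 0.062 (adjusted p = 7.2e-43) for Col6a3. None of the 3 differed between strata by the interaction term (adjusted p = 0.329, 0.765 and 0.413). Over the list, 5 of 6 chains were higher in each stratum and none lower (medians 1.49 and 1.37). Col6a5 was the member that differed by stratum, at 0.37 ± 0.18 (adjusted p = 0.0578) without and 1.32 ± 0.13 (adjusted p = 8.34e-17) with Ddx3y counts, and with Adgre1 as a covariate the latter was 0.55 and not called.

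The network collagens build sheets, chiefly those of the basement membrane, and changed less. Of 11 tested, 10 were higher without Ddx3y counts (median 0.79), and 7 were higher and 2 lower with them (median 0.66). Col4a1 and Col4a2, which start beside each other on opposite strands of chromosome 8 (11198423 to 11312826 and 11312805 to 11449287), rose by 0.79 ± 0.063 (adjusted p = 4.46e-21) and 0.78 ± 0.068 (adjusted p = 7.44e-19) without Ddx3y counts and by 0.78 ± 0.055 (adjusted p = 4.08e-26) and 0.87 ± 0.060 (adjusted p = 6.18e-27) with them. The annotated ends of these genes overlap, so reads there could be shared. Col15a1, a chain that links basement membranes to fibrils, was at 1.07 ± 0.11 (adjusted p = 5.91e-15) and 0.86 ± 0.082 (adjusted p = 8.82e-18). Col18a1, the source of endostatin, was at 0.99 ± 0.098 (adjusted p = 2.7e-16) and 0.49 ± 0.071 (adjusted p = 8.44e-10), a smaller rise with Ddx3y counts by the interaction term (adjusted p = 0.000206).

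The fibril-associated collagens, which sit on fibril surfaces, did not move as 1 group. The same 3 members rose in both strata: Col12a1 by 1.28 ± 0.13 (adjusted p = 5.12e-15) and 1.597 ± 0.14 (adjusted p = 4.51e-19), Col14a1 by 0.84 ± 0.087 (adjusted p = 2.36e-15) and 0.61 ± 0.082 (adjusted p = 1.04e-10), and Col16a1 by 1.72 ± 0.10 (adjusted p = 1.22e-29) and 1.35 ± 0.10 (adjusted p = 6.32e-24). Of all 8 tested, 3 were higher and 1 lower without Ddx3y counts and 3 higher and 4 lower with them (medians 0.32 and -0.31). Of the 4 transmembrane collagens, 2 were higher and 1 lower without Ddx3y counts, and none higher and 2 lower with them (medians 0.34 and -0.25). Of all genes tested, 34.5% were higher and 31.7% lower without Ddx3y counts, and 29.7% higher and 37.2% lower with them. For lists this short the counts beside these shares are a description only.

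Most genes that fold, trim and cross-link procollagen rose with the chains. Of 25 folding and processing genes, 22 were higher and 1 lower without Ddx3y counts (median 0.69) and 20 higher and 1 lower with them (median 0.50). Serpinh1, the collagen chaperone of the endoplasmic reticulum, ranged from 99.1 to 752 CPM in the bottom group (median 404.6) and from 394.02 to 1190.4 CPM in the top group (median 670.2) without Ddx3y counts. With Ddx3y counts Serpinh1 ranged from 96.6 to 667.998 CPM (median 349.4) and from 316.5 to 1149 CPM (median 670.8). Both pairs of groups overlapped, and the changes were 0.75 ± 0.078 (adjusted p = 4.14e-15) and 0.90 ± 0.074 (adjusted p = 2.21e-21). P4hb, a subunit of the prolyl hydroxylase that also serves general protein folding, rose by only 0.58 ± 0.041 (adjusted p = 1.27e-24) and 0.36 ± 0.054 (adjusted p = 2.93e-09). Adamts2, which cuts off the N-terminal propeptide, rose by 1.29 ± 0.075 (adjusted p = 2.54e-30) and 1.11 ± 0.061 (adjusted p = 1.2e-34).

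All 6 genes of cross-linking enzymes were higher in both strata, with medians of 0.78 and 0.82. Lox, the lysyl oxidase that starts covalent links between collagen molecules, ranged from 31.4 to 170.4 CPM in the bottom group (median 69.8) and from 57.6 to 276.7 CPM in the top group (median 99.1) without Ddx3y counts. With Ddx3y counts Lox ranged from 16.9 to 131.2 CPM (median 69.7) and from 71.05 to 319.03 CPM (median 180.5). The top group of Lox was thus further from the bottom one with Ddx3y counts, 1.24 ± 0.079 (adjusted p = 2.3e-29) against 0.64 ± 0.088 (adjusted p = 3.85e-10), and the difference of 0.61 ± 0.12 (SE, adjusted p = 3.38e-06) passed. Loxl1, the relative tied to elastic fibres, rose by 1.05 ± 0.058 (adjusted p = 8.15e-32) and 1.10 ± 0.064 (adjusted p = 3.09e-32), and Loxl2 by 1.26 ± 0.076 (adjusted p = 5.1e-29) and 0.97 ± 0.090 (adjusted p = 2.77e-18).

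Small leucine-rich proteoglycans bind collagen and limit fibril width. Of 10 tested, 8 were higher without Ddx3y counts (median 0.63) and 6 higher and 2 lower with them (median 0.19). With Adgre1 as a covariate 4 were higher and 2 lower with Ddx3y counts (median -0.08). Bgn ranged from 85.3 to 295.8 CPM in the bottom group (median 179.9) and from 183.003 to 945 CPM in the top group (median 395.8) without Ddx3y counts. With Ddx3y counts Bgn ranged from 172.3 to 393.5 CPM (median 281.6) and from 396.8 to 1001 CPM (median 587.2), with no overlap. Bgn rose by 1.18 ± 0.079 (adjusted p = 8.17e-26) and 1.10 ± 0.055 (adjusted p = 2.32e-37) and Lum, the keratan sulfate member, by 1.47 ± 0.095 (adjusted p = 4.2e-27) and 1.73 ± 0.091 (adjusted p = 5.71e-36). Dcn, the most abundant of these 3 per kilobase, changed least, by 0.41 ± 0.078 (adjusted p = 1.69e-06) and 0.28 ± 0.051 (adjusted p = 1.06e-06), and with Adgre1 as a covariate its value with Ddx3y counts was -0.24.

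Elastic fibre genes were higher in 13 of 13 cases without Ddx3y counts (median 0.95) and in 11 of 13 with them (median 0.67, none lower). Fbn1, the microfibril scaffold, rose by 1.34 ± 0.090 (adjusted p = 7.86e-26) and 1.12 ± 0.093 (adjusted p = 3.42e-21). Eln, elastin itself, rose by 1.11 ± 0.081 (adjusted p = 2.41e-23) and by 0.52 ± 0.075 (adjusted p = 9e-10), less with Ddx3y counts (adjusted p of the interaction = 1.98e-06). Of the 20 matrix glycoproteins, 17 were higher without Ddx3y counts and 13 higher and 3 lower with them (medians 0.86 and 0.51). Fn1, the fibronectin on which fibrils assemble, ranged from 270.3 to 1200.0 CPM in the bottom group (median 608.1) and from 502.5 to 3497 CPM in the top group (median 1352) without Ddx3y counts and rose by 1.25 ± 0.085 (adjusted p = 1.98e-25), and with Ddx3y counts it rose by 1.22 ± 0.081 (adjusted p = 9.22e-28). Sparc, a collagen-binding protein, rose by 1.02 ± 0.081 (adjusted p = 2.81e-21) and 0.94 ± 0.076 (adjusted p = 6.96e-22). Thbs1, which can release latent TGF-beta, went apart from the rest. It ranged from 19.999 to 1106 CPM in the bottom group (median 244.3) and from 97.9 to 954 CPM in the top group (median 471.6) without Ddx3y counts, a rise of 0.54 ± 0.18 (adjusted p = 0.00651). With Ddx3y counts Thbs1 ranged from 41.5 to 2311 CPM (median 800.2) and from 224.3 to 1015 CPM (median 413.1), which was -0.86 ± 0.16 (adjusted p = 1.63e-06). The direction of Thbs1 was therefore opposite in the strata, although with Adgre1 as a covariate its value without Ddx3y counts was -0.06 and not called. Among 13 basement membrane glycoproteins 11 were higher without Ddx3y counts (median 0.43) and 6 higher and 4 lower with them (median 0.05), and Hspg2, perlecan, rose by 0.64 ± 0.061 (adjusted p = 2.61e-17) and 0.56 ± 0.059 (adjusted p = 2.09e-15).

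Most genes of enzymes that break down matrix rose together with the genes that build it. Of 21 matrix proteases, 17 were higher and 1 lower without Ddx3y counts (median 0.81) and 14 higher and 5 lower with them (median 0.73). Mmp2, the gelatinase made by stromal cells, ranged from 42.8 to 181.3 CPM in the bottom group (median 81.4) and from 92.4 to 382.2 CPM in the top group (median 145.1) without Ddx3y counts. It rose by 0.90 ± 0.077 (adjusted p = 1.03e-19) and 1.33 ± 0.087 (adjusted p = 1.88e-28). Adamts5, an aggrecanase, rose by 1.14 ± 0.13 (adjusted p = 1e-13) and 0.73 ± 0.096 (adjusted p = 4.85e-11). Mmp12, the elastase of macrophages, ranged from 0.309 to 31.8 CPM in the bottom group (median 1.24) and from 0.222 to 201.7 CPM in the top group (median 5.21) without Ddx3y counts. With Ddx3y counts Mmp12 ranged from 0.566 to 100.4 CPM (median 8.57) and from 26.04 to 1051 CPM (median 219.8). The changes of Mmp12, 3.12 ± 0.43 (adjusted p = 2.7e-10) and 4.17 ± 0.28 (adjusted p = 6.11e-28), came with overlapping ranges in both strata. Mmp9, the one protease lower in both strata, was at -0.45 ± 0.21 (adjusted p = 0.0496) and -1.01 ± 0.21 (adjusted p = 7.77e-06), and the first value passed narrowly and was lost under several alternatives.

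Of 9 protease inhibitor and collagen uptake genes, 7 were higher without Ddx3y counts, and 5 were higher and 3 lower with them (medians 1.01 and 0.33). Timp2 rose by 0.54 ± 0.060 (adjusted p = 8.27e-14) and 0.33 ± 0.052 (adjusted p = 8.96e-09). Timp3, which binds to the matrix, was at -0.06 ± 0.060 (adjusted p = 0.372) without Ddx3y counts, where the column sum alone gave 0.22 (adjusted p = 0.00407), and fell by 0.61 ± 0.065 (adjusted p = 4.38e-15) with them. Timp4, the adipocyte member of the family, was at 0.20 ± 0.12 (adjusted p = 0.127) and fell by 0.80 ± 0.11 (adjusted p = 2.55e-10). Timp1, chosen after its values were seen, ranged from 0.350 to 2.27 CPM in the bottom group (median 0.937) and from 1.37 to 39.2 CPM in the top group (median 4.53) without Ddx3y counts. With Ddx3y counts Timp1 ranged from 0.405 to 40.1 CPM (median 1.71) and from 4.93 to 66.2 CPM (median 20.3). It was scarce and rose by 2.58 ± 0.17 (adjusted p = 1.15e-26) and 3.11 ± 0.21 (adjusted p = 9.32e-27), so the 4 inhibitors of this family did not share a direction.

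Genes of the signals known to drive fibroblasts had smaller medians than the fibrillar collagens. Of 22 genes of the TGF-beta pathway, 13 were higher and 4 lower without Ddx3y counts (median 0.27) and 11 higher and 6 lower with them (median 0.12), beside 34.5% and 29.7% of all genes tested that were higher. These counts depend on the scaling. With the column sum alone 20 were higher and none lower without Ddx3y counts (median 0.55), where 85.9% of all calls were higher. In the other stratum 15 were then higher and 1 lower (median 0.22). Tgfb1, the ligand, was chosen after its values were seen and ranged from 16.5 to 39.2 CPM in the bottom group (median 23.5) and from 22.2 to 61.8 CPM in the top group (median 33.8) without Ddx3y counts. With Ddx3y counts Tgfb1 ranged from 15.8 to 43.6 CPM (median 31.8) and from 36.3 to 119.4 CPM (median 66.7). It rose by 0.58 ± 0.057 (adjusted p = 3.43e-16) and 1.09 ± 0.054 (adjusted p = 6.3e-38), more with Ddx3y counts (adjusted p = 4.18e-09). The receptor gene Tgfbr2 rose by 0.37 ± 0.054 (adjusted p = 2.75e-09) and 0.43 ± 0.043 (adjusted p = 1.11e-16). Ltbp4, which tethers latent TGF-beta to fibres, rose by 0.59 ± 0.056 (adjusted p = 2.46e-17) without Ddx3y counts and fell by 0.12 ± 0.041 (adjusted p = 0.00492) with them. Of 11 genes of PDGF and FGF signalling, 8 were higher without Ddx3y counts and 5 higher and 3 lower with them (medians 0.34 and 0.09). With the column sum alone all 11 were higher without Ddx3y counts, and 7 were higher and 1 lower with them (medians 0.61 and 0.19). The receptor gene Pdgfra, carried by progenitors, rose by 0.43 ± 0.071 (adjusted p = 5.33e-08) and 0.43 ± 0.073 (adjusted p = 9.62e-08), and Pdgfrb, carried by pericytes and fibroblasts, by 0.67 ± 0.056 (adjusted p = 3.19e-20) and 0.73 ± 0.053 (adjusted p = 2.15e-25). With Adgre1 as a covariate Pdgfra was at -0.45 with Ddx3y counts.

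**Figure D3:**
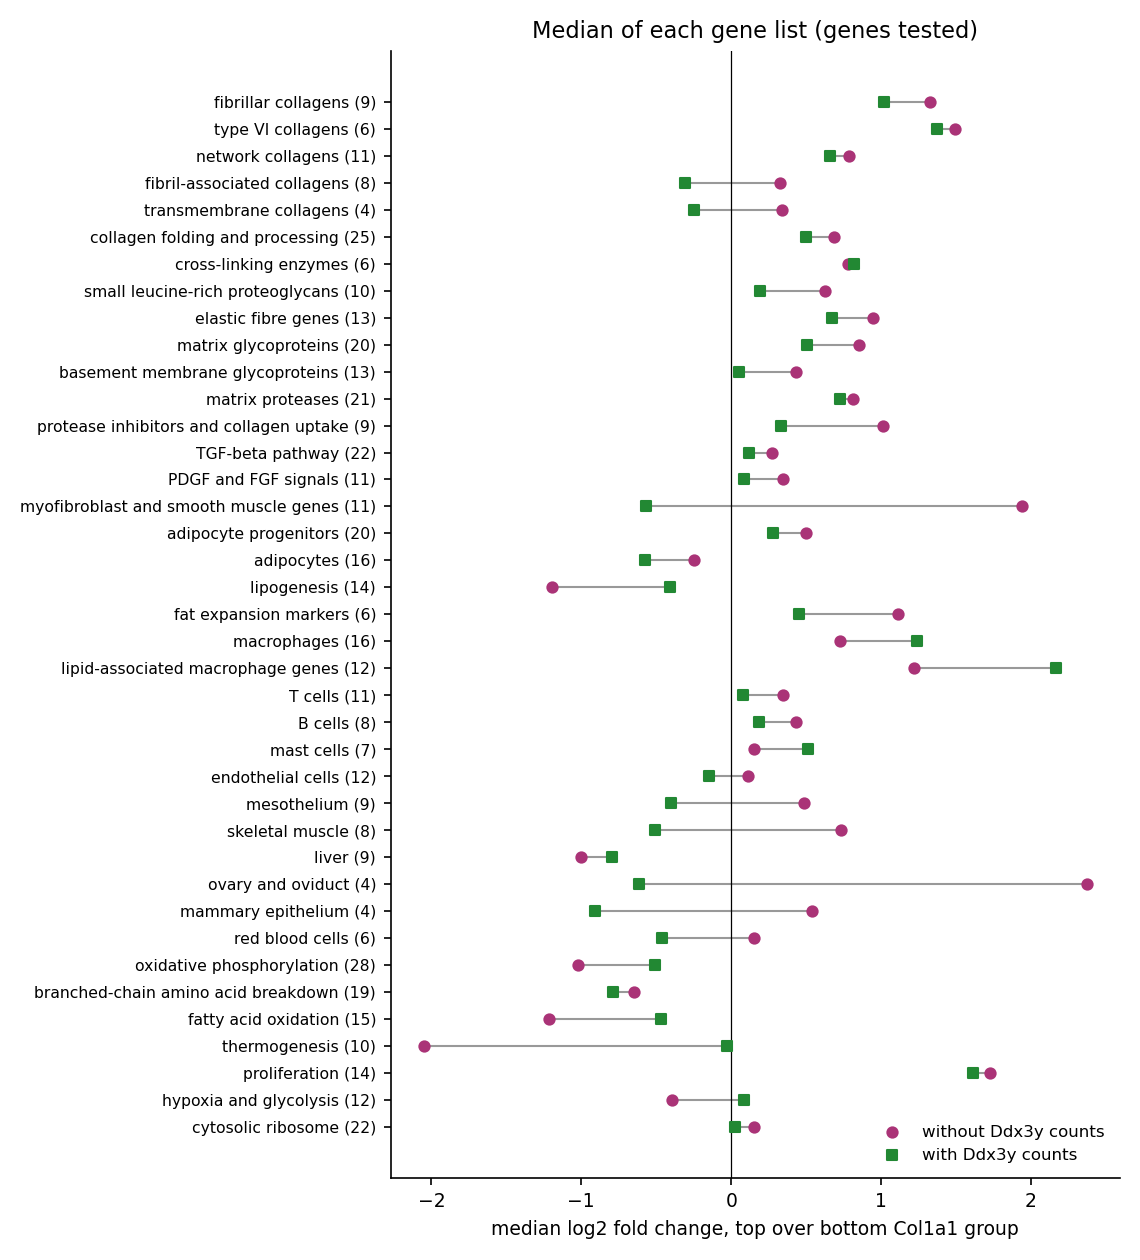
Median log2 fold change of the top over the bottom group for each gene list, with the number of tested genes in parentheses, in samples without (circles) and with (squares) Ddx3y counts. The fibrillar, type VI and network collagens lie right of 0 in both strata, the fibril-associated and transmembrane collagens lie left of 0 with Ddx3y counts (-0.31 and -0.25), and the smooth muscle list stands at 1.94 and -0.57.

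Genes of contractile cells parted the strata. All 11 myofibroblast and smooth muscle genes were higher without Ddx3y counts (median 1.94), and with them 5 were lower and none higher (median -0.57). All 11 passed the interaction test. With Adgre1 as a covariate none was lower with Ddx3y counts (median -0.14), and with Adipoq all 11 were (median -1.11). The column sum alone gave 3 lower in that stratum (median -0.47). Acta2, smooth muscle actin, ranged from 41.8 to 454.3 CPM in the bottom group (median 86.6) and from 88.5 to 3532 CPM in the top group (median 230.3) without Ddx3y counts. With Ddx3y counts Acta2 ranged from 75.7 to 848 CPM (median 203.2) and from 59.7 to 939.5 CPM (median 183.6). The changes were 1.98 ± 0.21 (adjusted p = 2.59e-15) and -0.30 ± 0.16 (adjusted p = 0.0981) for Acta2, 2.09 ± 0.24 (adjusted p = 3e-13) and -0.54 ± 0.17 (adjusted p = 0.00349) for Tagln, and 1.96 ± 0.25 (adjusted p = 3.22e-11) and -0.72 ± 0.29 (adjusted p = 0.0249) for the smooth muscle myosin gene Myh11. A set of samples with very high levels moved with this result. The 11 genes summed to 273.6 to 2412 CPM (median 453.8) in the bottom and 401.9 to 16692 CPM (median 939.3) in the top group without Ddx3y counts, and of the 10% of samples with the largest sums 16 were in that top group and 1 in the bottom one. With Ddx3y counts the sums were 399.1 to 5337 CPM (median 795.4) and 343.1 to 5481 CPM (median 682.7). Without that 10% of samples, 10 of the 11 genes were still higher without Ddx3y counts, with a median of 0.51, while the fibrillar list had a median of 1.32. Mesothelial genes, which mark the lining of visceral fat, split the same way, 7 of 9 higher without Ddx3y counts and 7 of 9 lower with them (medians 0.49 and -0.40). The second count went to 3 of 9 lower without the 10% of samples highest in smooth muscle genes (median -0.23), without the 10% highest in other-tissue genes (median -0.32) or by the column sum alone (median -0.30, with 1 higher), and to 2 of 9 with Adgre1 as a covariate (median -0.22). Upk3b was at 0.43 ± 0.11 (adjusted p = 0.000212) and -0.40 ± 0.11 (adjusted p = 0.000994), and Msln at 0.77 ± 0.11 (adjusted p = 2.43e-10) and -0.21 ± 0.12 (adjusted p = 0.124).

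Progenitor genes rose moderately, 16 of 20 without Ddx3y counts (median 0.50) and 12 of 20, with 4 lower, with them (median 0.28). With Adgre1 as a covariate 6 of 20 were higher and 4 lower with Ddx3y counts, with a median of -0.09. Several of these, Pdgfra, Fbn1 and Col15a1, stand on the matrix or signal lists too. Endothelial genes had medians of 0.11 and -0.15, with 7 higher and 2 lower of 12 without and 6 lower with Ddx3y counts. Kdr, the VEGF receptor, was at -0.29 ± 0.056 (adjusted p = 4.49e-06) and -0.55 ± 0.061 (adjusted p = 2.21e-14), although with the column sum alone the first value was -0.002 and not called. Of all genes tested, 34.5% were higher without and 29.7% with Ddx3y counts. Beside these shares, T cell genes were higher in 4 of 11 and 2 of 11, and B cell genes in 5 of 8 and 1 of 8. Mast cell genes were higher in none of 7 and 6 of 7. These counts depend on the scaling and the covariates. With the column sum alone T cell genes were higher in 8 of 11 and mast cell genes in 6 of 7 without Ddx3y counts, and with Adgre1 or Adipoq as a covariate none of the mast cell genes was higher with them.

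**Figure D4:**
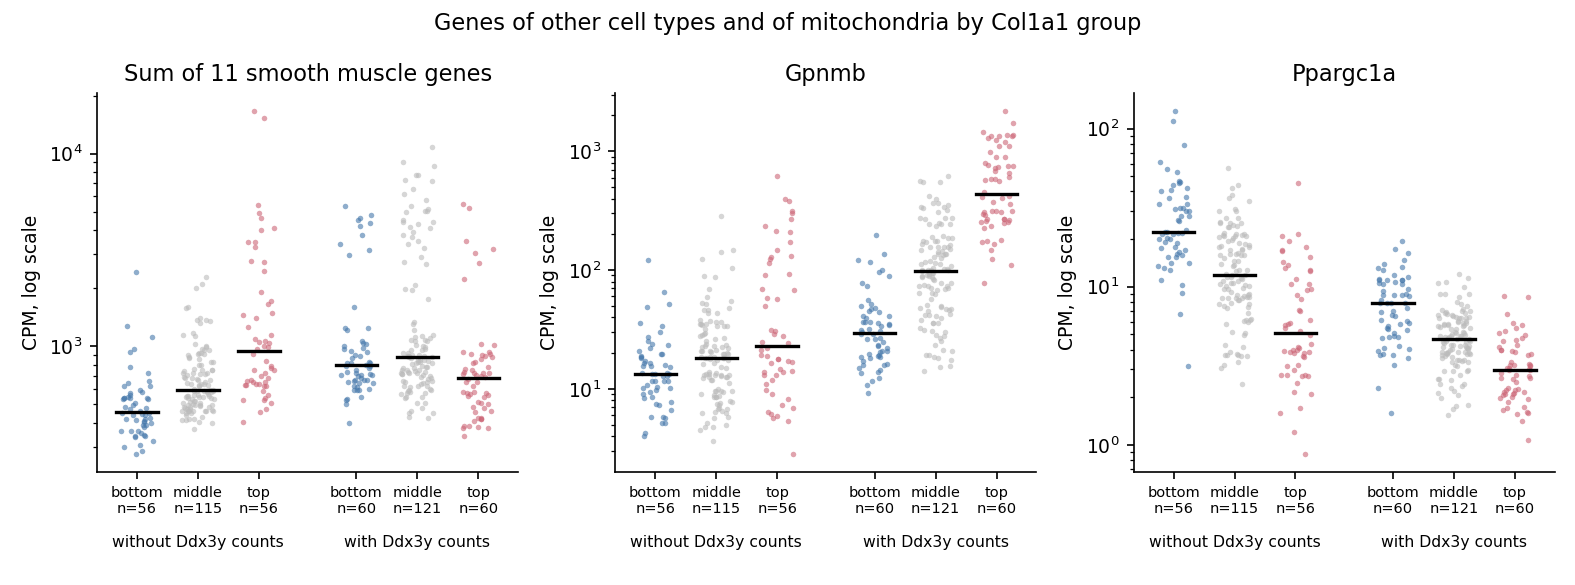
TMM-scaled CPM on log axes of the sum of 11 smooth muscle genes, of Gpnmb and of Ppargc1a in each sample by Col1a1 group and by presence of Ddx3y counts, with 1 point per mouse and bars at the medians. In the smooth muscle sum a set of high points lies in the top group without Ddx3y counts and in the bottom, middle and, fewer, top samples with them, Gpnmb climbs most with Ddx3y counts, and Ppargc1a falls in both strata.

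Most macrophage genes were higher in the top group of both strata. Of 16, 15 were higher without Ddx3y counts (median 0.73), and 12 were higher and 1 lower with them (median 1.24). Their sum was 456.4 to 1897 CPM (median 891.5) in the bottom and 730.5 to 3396 CPM (median 1493) in the top group without Ddx3y counts. With Ddx3y counts it was 374.95 to 2195 CPM (median 1196) against 1644 to 6713 CPM (median 3070). Csf1r, the receptor that keeps macrophages alive, was at 0.67 ± 0.078 (adjusted p = 3.85e-13) and 1.14 ± 0.068 (adjusted p = 2.24e-31). Mrc1, the mannose receptor, was at 0.75 ± 0.070 (adjusted p = 2.01e-17) and 1.11 ± 0.068 (adjusted p = 1.54e-30), and Lyz2, a lysozyme, at 0.92 ± 0.12 (adjusted p = 1.6e-11) and 1.81 ± 0.099 (adjusted p = 1.65e-34). Each of these 3 rose more with Ddx3y counts by the interaction term.

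The genes of lipid-associated macrophages, cells known to ring dying adipocytes, included several large differences. Of 12, 9 were higher without Ddx3y counts (median 1.22), and 11 higher and 1 lower with them (median 2.17). Gpnmb, a lysosomal glycoprotein, ranged from 3.99 to 121.1 CPM in the bottom group (median 13.3) and from 2.81 to 613.99 CPM in the top group (median 23.1) without Ddx3y counts. With Ddx3y counts Gpnmb ranged from 9.32 to 197.1 CPM (median 29.4) and from 78.5 to 2193 CPM (median 435.96). In the top group without Ddx3y counts some samples were as low as any in the bottom one, whereas with them each top sample lay above the bottom median. Gpnmb rose by 2.21 ± 0.31 (adjusted p = 5.03e-10) and 3.96 ± 0.22 (adjusted p = 1.47e-34), a difference between strata of 1.76 ± 0.35 (SE, adjusted p = 6.76e-06). Itgax, the integrin CD11c, rose by 2.77 ± 0.34 (adjusted p = 4.05e-12) and 3.91 ± 0.22 (adjusted p = 2.97e-34), Atp6v0d2, a subunit of a proton pump, by 2.91 ± 0.35 (adjusted p = 1.05e-12) and 3.95 ± 0.22 (adjusted p = 1.19e-33), and Spp1, osteopontin, by 2.52 ± 0.34 (adjusted p = 1.26e-10) and 3.33 ± 0.34 (adjusted p = 7.98e-16). Lipa, the lysosomal acid lipase, ranged from 55.8 to 181.7 CPM in the bottom group (median 95.8) and from 56.3 to 307.4 CPM in the top group (median 90.7) without Ddx3y counts, which was 0.05 ± 0.082 (adjusted p = 0.617). With Ddx3y counts Lipa ranged from 22.9 to 132.1 CPM (median 74.3) and from 112.1 to 603.01 CPM (median 261.3), a rise of 1.78 ± 0.083 (adjusted p = 4.56e-40). For Ctsd, a lysosomal protease, the values were -0.02 ± 0.067 (adjusted p = 0.757), where the column sum alone gave 0.27 and a call, and 0.81 ± 0.059 (adjusted p = 8.02e-25). These lysosomal genes thus rose in 1 stratum by the TMM-scaled test, and the interaction passed for both.

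Adgre1, the macrophage gene for F4/80, served as a covariate to see which differences remained at equal Adgre1. Adgre1 is itself on the macrophage list, so a smaller median of that list followed in part from the choice. With Ddx3y counts most top samples held more Adgre1 than most bottom ones, so few samples could be compared at equal levels. With this covariate the fibrillar list had medians of 1.06 and 0.85, with 7 and 5 of 9 genes higher. Col1a2 was at 1.55 without and 0.93 with Ddx3y counts. The macrophage list went to medians of 0.17 and 0.11, and the lipid-associated list to 0.12 and 0.78. Without Ddx3y counts Gpnmb (-0.47), Ubd (-0.08), Mmp12 (0.08), Itgax (0.16) and Atp6v0d2 (0.01) were then no longer called. Col3a1 remained at 1.41 and 1.21, and Timp1 at 1.75 and 3.31. With Ddx3y counts several other lists lost most of their calls. Fatty acid oxidation went from 13 to 4 of 15 genes lower (median -0.11), adipocytes from 14 to 4 of 16 lower (median -0.12) and the TGF-beta pathway from 11 to 3 of 22 higher (median 0.02), while T cell genes stood at 9 of 11 lower (median -1.33). In that stratum oxidative phosphorylation went from 27 to 16 of 28 lower (median -0.24). Proliferation went from 14 to 9 of 14 higher (median 0.77). Matrix glycoproteins went from 13 to 7 of 20 higher, with 3 still lower (median 0.19). Calls fell in number to 7375 without and 4802 with Ddx3y counts.

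**Figure D5:**
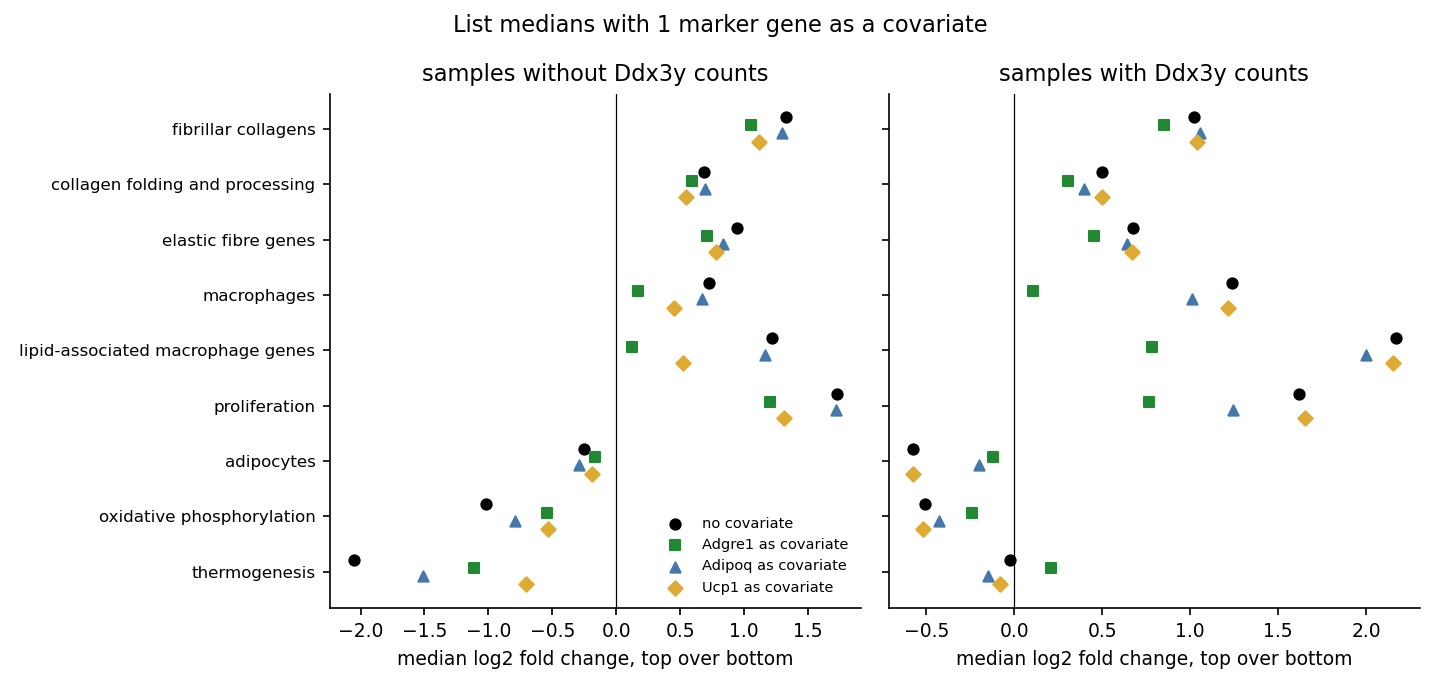
Median log2 fold change of 9 gene lists, top over bottom group, with no covariate and with log2 CPM of Adgre1, Adipoq or Ucp1 as a covariate, in samples without (left) and with (right) Ddx3y counts. With Adgre1 the fibrillar median moves from 1.33 to 1.06 and from 1.02 to 0.85, and the macrophage median from 0.73 to 0.17 and from 1.24 to 0.11.

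All 14 proliferation genes were higher in both strata (medians 1.73 and 1.62), and all 14 also rose with Col1a1 in both sets of middle samples. Mki67, a marker of cycling cells, ranged from 2.08 to 36.001 CPM in the bottom group (median 5.63) and from 4.09 to 74.2 CPM in the top group (median 21.1) without Ddx3y counts. With Ddx3y counts Mki67 ranged from 2.56 to 55.7 CPM (median 9.24) and from 19.4 to 98.3 CPM (median 46.7). It rose by 1.81 ± 0.17 (adjusted p = 6.14e-18) and 2.08 ± 0.14 (adjusted p = 2.36e-28), and Top2a, a topoisomerase, by 1.74 ± 0.15 (adjusted p = 1.23e-18) and 1.80 ± 0.15 (adjusted p = 5.35e-21). Which cells carry these transcripts cannot be read from bulk tissue.

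Other genes among the 12 with the largest shared rise have varied roles. Lep, the adipocyte hormone that tracks fat mass, ranged from 0.736 to 1339 CPM in the bottom group (median 227.8) and from 21.2 to 3681 CPM in the top group (median 1041) without Ddx3y counts. With Ddx3y counts Lep ranged from 49.1 to 2950.4 CPM (median 561.9) and from 1397 to 5481 CPM (median 2855). It rose by 1.98 ± 0.27 (adjusted p = 2.61e-10) and 1.82 ± 0.18 (adjusted p = 9.87e-17), while most of the adipocyte list fell. Adam8, a metalloprotease of leukocytes, rose by 2.08 ± 0.23 (adjusted p = 8.22e-14) and 3.44 ± 0.16 (adjusted p = 3.37e-39). Ubd, a ubiquitin-like protein induced by cytokines, rose by 2.40 ± 0.34 (adjusted p = 9.84e-10) and 3.498 ± 0.21 (adjusted p = 3.92e-31). Slc5a7, a choline transporter, rose by 2.95 ± 0.47 (adjusted p = 2.45e-08) and 1.78 ± 0.22 (adjusted p = 7.48e-12), and the kinase gene Dclk1 by 1.88 ± 0.15 (adjusted p = 1.23e-21) and 1.80 ± 0.082 (adjusted p = 3.5e-41).

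Adipocyte genes were mostly lower. Of 16, 2 were higher and 11 lower without Ddx3y counts (median -0.25), and 1 was higher and 14 lower with them (median -0.58). The first split rests on the scaling: with the column sum alone it was 6 higher and 6 lower, with a median of 0.03. Fabp4, the fatty acid carrier, fell by 0.24 ± 0.045 (adjusted p = 7.97e-07) without Ddx3y counts, where the column sum alone gave 0.03 and no call, and by 0.48 ± 0.053 (adjusted p = 3.6e-14) with them. Plin4, a lipid droplet protein, was at 0.20 ± 0.075 (adjusted p = 0.0162) and -0.77 ± 0.077 (adjusted p = 1.72e-16). Genes that mark fat expansion were higher in 5 of 6 and in 4 of 6 with 1 lower (medians 1.11 and 0.45). In the middle samples 4 of the 6 rose and none fell without Ddx3y counts, but 1 rose and 1 fell with them. Mest, the best known of them, ranged from 3.87 to 394.7 CPM in the bottom group (median 21.9) and from 5.69 to 1305 CPM in the top group (median 181.5) without Ddx3y counts and rose by 2.52 ± 0.37 (adjusted p = 2.45e-09), and by 1.13 ± 0.29 (adjusted p = 0.000321) with Ddx3y counts. Npr3, the clearance receptor for natriuretic peptides, rose by 1.18 ± 0.19 (adjusted p = 3.57e-08) and 0.47 ± 0.11 (adjusted p = 0.000149).

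Most genes of fat synthesis fell in both strata. Of 14 lipogenesis genes, 11 were lower and none higher without Ddx3y counts (median -1.20), and 9 were lower and 3 higher with them (median -0.41). With Adgre1 as a covariate 9 were lower without Ddx3y counts, but 2 were lower and 3 higher with them (median 0.08), and in the middle samples with Ddx3y counts 3 fell and 4 rose. Acacb, which makes the malonyl-CoA that restrains fat oxidation, ranged from 303.8 to 4166 CPM in the bottom group (median 1756) and from 92.5 to 1737 CPM in the top group (median 356.03) without Ddx3y counts. With Ddx3y counts Acacb ranged from 163.7 to 1446 CPM (median 560.2) and from 113.2 to 538.4 CPM (median 210.1). It fell, at -1.90 ± 0.17 (adjusted p = 6.34e-18) and -1.32 ± 0.10 (adjusted p = 1.75e-22). Acaca, the carboxylase of the synthesis route itself, fell, at -1.55 ± 0.17 (adjusted p = 9.19e-14) and -1.26 ± 0.11 (adjusted p = 2.09e-20), Fasn, fatty acid synthase, at -1.497 ± 0.16 (adjusted p = 1.62e-14) and -0.57 ± 0.12 (adjusted p = 7.11e-06), and Thrsp, a lipogenic nuclear protein, at -1.68 ± 0.19 (adjusted p = 5.11e-14) and -1.32 ± 0.13 (adjusted p = 4.64e-17). Scd1, the desaturase, was very abundant, and ranged from 44158 to 139509.8 CPM in the bottom group (median 92125) and from 30227 to 103626 CPM in the top group (median 76450.1) without Ddx3y counts. It fell, at -0.36 ± 0.072 (adjusted p = 4.89e-06) and -0.83 ± 0.078 (adjusted p = 2.85e-18). Elovl6, which lengthens fatty acids, fell by 1.97 ± 0.23 (adjusted p = 6.17e-13) without and rose by 0.64 ± 0.17 (adjusted p = 0.000726) with Ddx3y counts.

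Nuclear genes of the respiratory chain fell almost throughout. All 28 oxidative phosphorylation genes were lower without Ddx3y counts (median -1.02) and 27 of 28 with them (median -0.51), beside the lower share of mitochondrially encoded counts given above. Atp5b, the catalytic subunit of ATP synthase, fell, at -0.99 ± 0.087 (adjusted p = 4.57e-19) and -0.61 ± 0.047 (adjusted p = 2.86e-23), and Sdha of complex II at -1.21 ± 0.094 (adjusted p = 8.45e-22) and -0.72 ± 0.048 (adjusted p = 5.89e-28). Ppargc1a, the coactivator of mitochondrial genes, ranged from 3.17 to 129.7 CPM in the bottom group (median 22.2) and from 0.868 to 45.4 CPM in the top group (median 5.10) without Ddx3y counts. With Ddx3y counts Ppargc1a ranged from 1.59 to 19.4 CPM (median 7.87) and from 1.07 to 8.70 CPM (median 2.97). It fell, at -1.91 ± 0.21 (adjusted p = 2.1e-14) and -1.31 ± 0.13 (adjusted p = 1.45e-17), with overlapping ranges in both strata. In the middle samples 28 of the 28 genes fell with Col1a1 without Ddx3y counts and 12 with them.

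Genes of thermogenesis fell in 1 stratum, and in the other their calls were near the shares of all genes tested. All 10 genes were lower without Ddx3y counts (median -2.05), beside 31.7% of all genes tested. With Ddx3y counts 2 were higher and 4 lower (median -0.03), beside 29.7% and 37.2% of all genes tested. Ucp1, which uncouples respiration in brown and beige fat, ranged from 1.28 to 4585 CPM in the bottom group (median 1041) and from 0.216 to 2649 CPM in the top group (median 52.1) without Ddx3y counts. With Ddx3y counts Ucp1 ranged from 0.150 to 53.8 CPM (median 4.36) and from 0.0775 to 53.04 CPM (median 4.85), so that few samples of that stratum held much Ucp1 RNA in either group. The changes were -2.34 ± 0.42 (adjusted p = 5.56e-07) and 0.21 ± 0.33 (adjusted p = 0.579), and their difference of 2.57 ± 0.52 (SE, adjusted p = 9.36e-06) passed. Cidea, a lipid droplet gene of brown fat, fell in both, at -2.48 ± 0.32 (adjusted p = 3.67e-11) and -1.19 ± 0.15 (adjusted p = 1.4e-11), whereas Dio2, the deiodinase that activates thyroid hormone, was at -2.14 ± 0.32 (adjusted p = 5.44e-09) and 0.96 ± 0.19 (adjusted p = 3.41e-06). With Ucp1 as a covariate the oxidative phosphorylation median without Ddx3y counts was -0.53 with all 28 genes still lower, and the fibrillar median was 1.11.

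Genes that oxidize fatty acids and branched-chain amino acids fell for the most part. For fatty acid oxidation 14 of 15 genes were lower without and 13 of 15 with Ddx3y counts (medians -1.21 and -0.47). In the middle samples 14 fell and 1 rose without Ddx3y counts. With them 3 fell and 2 rose, beside 17.4% of all genes tested that fell and 16.8% that rose. Hadhb, of the trifunctional protein, fell, at -1.57 ± 0.14 (adjusted p = 1.39e-18) and -0.28 ± 0.052 (adjusted p = 1.24e-06). Cpt1a, the entry enzyme in its widely expressed form, rose by 0.78 ± 0.064 (adjusted p = 2.12e-20) and 0.60 ± 0.041 (adjusted p = 1.56e-27). For branched-chain amino acids 18 of 19 genes were lower in each stratum (medians -0.65 and -0.79). Ivd, of leucine breakdown, fell, at -0.65 ± 0.073 (adjusted p = 1.15e-13) and -1.21 ± 0.069 (adjusted p = 1.95e-33), and Aldh6a1, of valine breakdown, at -0.87 ± 0.068 (adjusted p = 1.37e-21) and -1.22 ± 0.067 (adjusted p = 1.4e-34). Bcat1, the cytosolic aminotransferase, rose by 1.48 ± 0.15 (adjusted p = 3.96e-16) and 0.69 ± 0.11 (adjusted p = 9.39e-09). By the interaction term Ivd and Aldh6a1 fell more with Ddx3y counts than without, and Hadhb less.

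Several of the 12 genes with the largest shared fall are regulators or enzymes outside these lists. Acsm3, an acyl-CoA synthetase of mitochondria, ranged from 19.5 to 483.9 CPM in the bottom group (median 124.9) and from 0.496 to 247.97 CPM in the top group (median 14.5) without Ddx3y counts. With Ddx3y counts Acsm3 ranged from 4.46 to 156.2 CPM (median 25.2) and from 0.827 to 10.2 CPM (median 2.65). It fell, at -2.25 ± 0.26 (adjusted p = 5.31e-13) and -3.38 ± 0.19 (adjusted p = 4.96e-34). Fam13a, a locus known for body fat distribution, fell, at -1.31 ± 0.17 (adjusted p = 8.27e-11) and -2.996 ± 0.16 (adjusted p = 2.53e-34). The transcription factor gene Irf4 fell, at -2.10 ± 0.35 (adjusted p = 7.23e-08) and -3.26 ± 0.29 (adjusted p = 7.39e-20). Gpd2, of the glycerol phosphate shuttle, fell, at -2.11 ± 0.22 (adjusted p = 1.67e-15) and -1.25 ± 0.086 (adjusted p = 1.03e-26). Also among them were Tst at -1.46 ± 0.19 (adjusted p = 5.74e-11) and -1.24 ± 0.15 (adjusted p = 1.34e-12), Mapt at -1.52 ± 0.21 (adjusted p = 2.05e-10) and -1.25 ± 0.15 (adjusted p = 3.44e-13), and Serpina3k, a protease inhibitor made mainly by liver, at -1.88 ± 0.45 (adjusted p = 0.000129) and -1.36 ± 0.39 (adjusted p = 0.00141). Serpina3k rested on few high samples, as it ranged from 0.274 to 389.4 CPM in the bottom group (median 4.91) and from 0.365 to 100.03 CPM in the top group (median 3.14) without Ddx3y counts.

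Other tissues that a dissection can carry along were checked by their lists. Of all genes tested, 34.5% were higher and 31.7% lower without Ddx3y counts, and 29.7% higher and 37.2% lower with them. The 5 ovary and oviduct genes of the files summed to 2.45 to 15.3 CPM in the bottom group without Ddx3y counts and to 1.998 to 1399.9 CPM in the top one. Inha, inhibin alpha, had a log2 fold change of 4.06 ± 0.52 (adjusted p = 1.57e-11) there with medians of 0.436 and 0.646 CPM, and without the 10% of samples that were highest in other-tissue genes it was 0.45. In the top group without Ddx3y counts 1 library held 488.3 CPM of Inha. Skeletal muscle genes were higher in 2 and lower in 1 of 8 without and lower in 3 of 8 with Ddx3y counts, and mammary genes were higher in 2 and lower in 1 of 4 without and lower in 2 of 4 with them. The skeletal muscle split without Ddx3y counts (median 0.73) turned when samples were left out, to none higher and 7 lower (median -2.85) without the 10% highest in smooth muscle genes and to none higher and 5 lower (median -1.45) without the 10% highest in other-tissue genes. Liver genes were lower in 2 of 9 in each stratum, and without the 10% highest in other-tissue genes 1 of 9 was lower without Ddx3y counts and 1 higher with them. Pancreas and epididymis each had 1 tested gene. Of 6 red blood cell genes, 4 were lower with Ddx3y counts and none passed without. Hypoxia and glycolysis genes were higher in 3 and lower in 8 of 12 without and higher in 5 and lower in 3 of 12 with Ddx3y counts. Cytosolic ribosome genes, taken as a control list, had medians of 0.15 and 0.02, with 12 of 22 higher and 1 higher and 1 lower.

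The 5 genes with the clearest difference between strata in each direction were named by that difference, so their size is a description. The gene 5031439G07Rik, named only by its clone, ranged from 58.1 to 104.7 CPM in the bottom group (median 70.5) and from 59.7 to 164.9 CPM in the top group (median 77.99) without Ddx3y counts. With Ddx3y counts 5031439G07Rik ranged from 43.3 to 83.3 CPM (median 61.6) and from 85.3 to 272.6 CPM (median 144.3), without overlap. It rose by 0.19 ± 0.045 (adjusted p = 9.26e-05) and 1.25 ± 0.055 (adjusted p = 5.62e-42). Ctsz, a lysosomal cathepsin, was at -0.22 ± 0.067 (adjusted p = 0.00233), which the column sum alone turned to 0.08 with no call, and at 1.06 ± 0.063 (adjusted p = 6.26e-32). Galc, a lysosomal galactosidase, was at -0.32 ± 0.053 (adjusted p = 1.11e-07) and 0.80 ± 0.062 (adjusted p = 1.61e-23). Shtn1, known from neurons, was at -0.19 ± 0.082 (adjusted p = 0.0336), turned to 0.13 by the column sum alone, and at 1.37 ± 0.074 (adjusted p = 3.21e-35). In the other direction, Rhbdl1, a rhomboid protease gene, was at 0.09 ± 0.11 (adjusted p = 0.479) and -1.75 ± 0.10 (adjusted p = 2.37e-32), and Atp2b4, a calcium pump gene, at 0.39 ± 0.063 (adjusted p = 3.56e-08) and -0.61 ± 0.055 (adjusted p = 4.71e-19). Npr2, a natriuretic peptide receptor gene, was at -0.01 ± 0.038 (adjusted p = 0.842), with 0.27 by the column sum alone, and at -0.69 ± 0.043 (adjusted p = 1.15e-29). Npdc1 was at 0.39 ± 0.053 (adjusted p = 2.87e-10) and -0.37 ± 0.039 (adjusted p = 1.39e-15), and Igfbp4, a binding protein of insulin-like growth factors, at 0.76 ± 0.080 (adjusted p = 5.15e-15) and -0.19 ± 0.045 (adjusted p = 0.000134).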

How the data were processed

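Adipose RNA from 468 Diversity Outbred mice was sequenced as 1 library per mouse. The authors aligned reads as single ends to a transcriptome of the founder strains with EMASE in GBRS (build GRCm38 per the labels) and deposited expected counts, estimated per gene, for 23180 genes, of which 66.8% of values were whole within 1e-06. A variance-stabilized table was not used. The allocation of reads among alleles and similar genes is theirs and limits close paralogs.

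Expected counts were rounded. Genes with at least 10 counts in at least 50% of samples were kept (18380), and Col1a1 was left out of the tests (18379). Within each stratum the top and bottom groups were compared with edgeR 4.0.16 (R 4.3.3; TMM, quasi-likelihood test, Benjamini-Hochberg adjustment over all genes tested). One fit over the 4 groups gave the interaction, and a slope on log2 Col1a1 CPM was fitted in the middle samples. DESeq2 1.42.0 and limma 3.58.1 served as alternatives. Library properties were compared by two-sided permutation tests (SciPy 1.17.1). The scripts were tested on simulated data.

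The members, the 41 gene lists and the covariates were chosen with earlier results of these data known. Named genes were the 12 with the largest smaller-of-both change in each direction among genes averaging 10 CPM or more, the 5 clearest interactions each way, every fibrillar chain, members among the 4 most abundant of each other list, and any member whose direction differed from its list. A gene that this rule named is not reported here. The labels give no sex, age or batch, so none could enter a fit. Relatedness among the mice did not enter a fit either. Each p-value sets a difference or slope against the spread between mice, which are treated as independent. Counting intervals were not needed for these values, and no 2 libraries held identical values.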

Additional observations from a re-analysis of the deposited data

Results flagged for a closer look

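The difference between the top and bottom Col1a1 group was not the same size in the samples with and without Ddx3y counts for 71 of the genes named above, by the interaction term of edgeR's quasi-likelihood test at an adjusted p under 0.05. Each value is the log2 fold change with Ddx3y counts minus that without. Across all genes tested 24.1% passed upward and 26.7% downward, so a passing gene is not unusual. The interaction was not fitted with the column sum alone, so small values here can depend on the scaling. The strata also came from separate runs of mouse numbers, from which a difference between strata cannot be told apart.

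Among fibrillar and other collagens the values were 0.29 for Col3a1, -0.25 for Col5a1, 1.37 for Col24a1, 0.71 for Col27a1, 1.04 for Col11a2 and -2.18 for Col11a1, and 0.95 for Col6a5, -0.37 for Col16a1 and -0.49 for Col18a1. For the enzymes of collagen folding and cross-linking they were -0.22 for P4hb, -0.29 for Loxl2 and 0.61 for Lox, and for other matrix genes -0.58 for Eln and -1.40 for Thbs1. Proteases and inhibitors stood at 1.06 for Mmp12, -0.41 for Adamts5, 0.43 for Mmp2, -0.20 for Timp2, -0.54 for Timp3 and -0.996 for Timp4, and TGF-beta genes at 0.52 for Tgfb1 and -0.71 for Ltbp4.

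Contractile genes had values of -2.67 for Myh11, -2.28 for Acta2 and -2.62 for Tagln, and mesothelial and endothelial genes of -0.83 for Upk3b, -0.98 for Msln and -0.26 for Kdr. The value for Inha was -4.70. Macrophage and lysosomal genes had 0.89 for Lyz2, 0.47 for Csf1r, 0.37 for Mrc1, 0.84 for Ctsd, 1.74 for Lipa, 1.76 for Gpnmb, 1.14 for Itgax and 1.05 for Atp6v0d2. Other genes with a large shared rise had 1.11 for Ubd, 1.37 for Adam8 and -1.18 for Slc5a7.

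Adipocyte and fat expansion genes had -0.22 for Fabp4, -0.96 for Plin4, -0.72 for Npr3 and -1.39 for Mest, and lipogenic genes -0.46 for Scd1, 0.94 for Fasn, 0.59 for Acacb and 2.62 for Elovl6. Mitochondrial genes had 0.40 for Atp5b, 0.50 for Sdha, 1.30 for Hadhb, 0.62 for Ppargc1a, 0.88 for Gpd2 and -1.12 for Acsm3, genes of branched-chain amino acid metabolism -0.34 for Aldh6a1, -0.56 for Ivd and -0.79 for Bcat1, and thermogenic genes 2.57 for Ucp1, 1.30 for Cidea and 3.12 for Dio2. The regulators and lipid loci with a large shared fall had -1.15 for Irf4 and -1.68 for Fam13a.

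The genes chosen for the clearest difference, whose size the choice itself sets, had 1.07 for 5031439G07Rik, 1.57 for Shtn1, 1.29 for Ctsz and 1.13 for Galc, and -1.84 for Rhbdl1, -0.996 for Atp2b4, -0.67 for Npr2, -0.75 for Npdc1 and -0.94 for Igfbp4. Lipa, given with the lysosomal genes, was chosen in the same way.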

How the results depend on the processing

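The cause of each change given here was not tested. With no filter on low counts 0.909% of genes, against 0.522%, were at least 2-fold lower in both strata. The 10% at each end gave 4.74% of genes at least 2-fold higher and 1.32% lower, against 2.38% and 0.522%, and the upper and lower 50% gave 0.696% and 0.103%. The 10% groups also differed in library number without Ddx3y counts, by 129.6 (adjusted p = 0.00427). With Adgre1 as a covariate 7375 genes were called without Ddx3y counts (3665 higher, 3710 lower) and 4802 with them (2423 and 2379), 1997 in both strata in the same direction (950 and 1047), and 0.294% of genes at least 2-fold higher and 0.158% lower. The Ucp1, column sum and smooth muscle alternatives were chosen after seeing the data. With Ucp1 as a covariate 4005 genes were higher without Ddx3y counts, and 0.843% and 0.305% of genes were at least 2-fold higher and lower in both. With the column sum alone 12036 were higher and 1979 lower without Ddx3y counts, 6327 and 1345 in both strata, and 4.09% and 0.277% at least 2-fold. Leaving out the 10% of samples highest in smooth muscle genes changed none of these counts by over 1.5 times.

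Among the fold changes of single genes, sign changes were these. With Adgre1 as a covariate they were -0.085 for Ubd, -0.47 for Gpnmb, -0.29 for Lipa, 0.049 for Col27a1 and -0.056 for Thbs1 without Ddx3y counts, and -0.24 for Dcn, -0.22 for Timp2, 0.0068 for Ltbp4, -0.0052 for Tgfbr2, -0.45 for Pdgfra, 0.074 for Tagln and 0.16 for Fasn with them. The column sum alone gave 0.13 for Shtn1, 0.083 for Ctsz, 0.27 for Npr2, 0.22 for Timp3, 0.033 for Fabp4 and 0.27 for Ctsd without Ddx3y counts. Adipoq as a covariate gave 0.0042 for Igfbp4 and -0.060 for Col27a1 with Ddx3y counts, and Ucp1 gave 0.11 for Col27a1 without them. DESeq2, its size factors, limma, ranking by TMM-scaled Col1a1 and leaving out samples reversed none of these. Leaving out low Xist samples did not alter the groups. No paired analysis was possible because each mouse gave 1 library and the groups share no mouse. Each group holds 56 or 60 mice, more than the range in which single samples are left out in turn. Genes under 10 counts in over 50% of samples were not tested.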
